A study of Mus musculus with 20 samples.

Results

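The genes described here build and serve cilia, and they were measured in cultured stem cells from the spinal cord of adult mice, with and without YAP1. They are the genes of the deposited table whose symbols mark the transport system of the cilium (Ift, Bbs and Dync2 genes, Ttc8 and Ttc21b) or the motile axoneme (axonemal dynein, assembly factor, radial spoke and Cfap genes, Hydin, Drc, Spag6 and Spef2). The choice used gene symbols and no measured value. It gave 93 of 16927 genes, of which 26 were transport genes and 67 motile axoneme genes. The cells grew as neurospheres, and 8 libraries of stranded poly(A) RNA were analysed, 2 in each of 4 groups. KO differentiation and KO proliferation are cells given an adenovirus that carries Cre under the CMV promoter, so that Yap1 recombines. WT differentiation and WT proliferation are wild-type cells, and the labels do not say whether these received a virus or carried the recombining Yap1 allele, so virus or allele and loss of YAP1 cannot be told apart. Proliferation was 7 days of neurosphere growth with heparin, EGF and FGF2, and differentiation lasted 5 days. The labels give no age, sex or strain and do not say whether replicates came from separate animals, so p-values measure the spread between these libraries, which may be technical.

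A primary cilium is a single antenna that many cells, neural stem cells among them, raise from the basal body when they leave the cell cycle. It is built by intraflagellar transport, in which IFT-B trains carried by kinesin-2 move cargo to the tip, IFT-A trains carried by dynein-2 bring it back, and the BBSome loads membrane proteins. Motile cilia, such as those of the ependymal cells that line the central canal, use the same transport and add dynein arms, radial spokes and a central pair.

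Total counts per library ranged from 18075595 to 18940983. Yap1, the targeted gene, had 22.6 and 27.8 CPM (library-size-scaled counts) in KO differentiation, against 107 and 93.7 CPM in WT differentiation. It had 27.0 and 32.7 CPM in KO proliferation, against 171 and 150 CPM in WT proliferation, so that KO libraries lay below WT libraries in both conditions. The neural stem cell markers Sox2, Nes and Fabp7 were present in every library, and Ptprc, which marks leukocytes, had no counts. Of 19 ependymal markers in the table, 7 had enough counts to be tested, and Pifo was at 0 throughout. In differentiation 6 of 7 tested astrocyte markers were higher in KO cells and 6 of 7 in WT cells (edgeR, adjusted p under 0.05). Neuron markers were higher for 4 of 6 in KO cells and 3 of 6 in WT cells. Oligodendrocyte markers were higher for 2 of 4 and 3 of 4, and 0 were lower in each of these lists. Of 10 neural stem cell markers, 6 were higher and 2 lower in each genotype. Of all genes, 25.1% were higher and 26.7% lower in KO cells, and 27% and 28.3% in WT cells. All 25 mitosis genes listed were lower in both genotypes. The part of these shifts in the results below was not tested.

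The transport genes all reached a mean of 1 TPM, and most motile axoneme genes did not. TPM (a level that corrects for transcript length and library size) of the 26 transport genes, averaged over the 8 libraries, ranged from 3.31 for Ift88 to 77.3 for Ift27, with a median of 15.5, and 24 of them reached 5 TPM. The 67 motile axoneme genes had a median of 0.186 TPM, and 22 of them reached 1 TPM. The median over all genes in the table was 12.6 TPM. Enough counts for a test were found for 26 of 26 transport genes and for 35 of 67 motile axoneme genes (52.2%), against 77.1% of all genes.

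Among motile axoneme genes, the untested ones numbered 32, and 29 of these had at most 10 counts in every library. They included 9 of 18 axonemal dynein chains, 1 of 5 assembly factors, 6 of 13 radial spoke, nexin link and central pair genes, and 16 of 31 other Cfap genes. Cfap65 had no count in any library, which allows up to 3 counts per library. Drc1, a scaffold of the nexin link chosen after its values were seen, had the highest count of an untested member, 45 in 1 WT differentiation library. A few genes held most of the motile axoneme signal. Cfap20, Cfap36, Dnal4, Cfap298 and Rsph3a made up 59.9% of its summed TPM in KO differentiation and 59% in WT differentiation, against 69.2% in KO proliferation and 69.2% in WT proliferation. Cfap20 is a protein of the inner junction of the doublet microtubule in Chlamydomonas, and Cfap36 binds the small GTPase ARL3.

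Summed over the transport genes, TPM was 499 ± 49.1 in KO differentiation and 527 ± 24.5 in WT differentiation, against 552 ± 8.4 in KO proliferation and 557 ± 1.46 in WT proliferation (SD, n = 2 each). Summed over the motile axoneme genes, it was 342 ± 19.4 in KO differentiation and 357 ± 1.44 in WT differentiation, against 427 ± 3.48 in KO proliferation and 446 ± 10.7 in WT proliferation (SD, n = 2 each). Mean sums in differentiation lay below those in proliferation for both classes in each genotype. The motile axoneme sum follows its few highest genes and not the class as a whole. The median log2 fold change of its tested genes was 0.18 in KO cells and 0.09 in WT cells. No test was made of these sums.

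**Figure D1:**
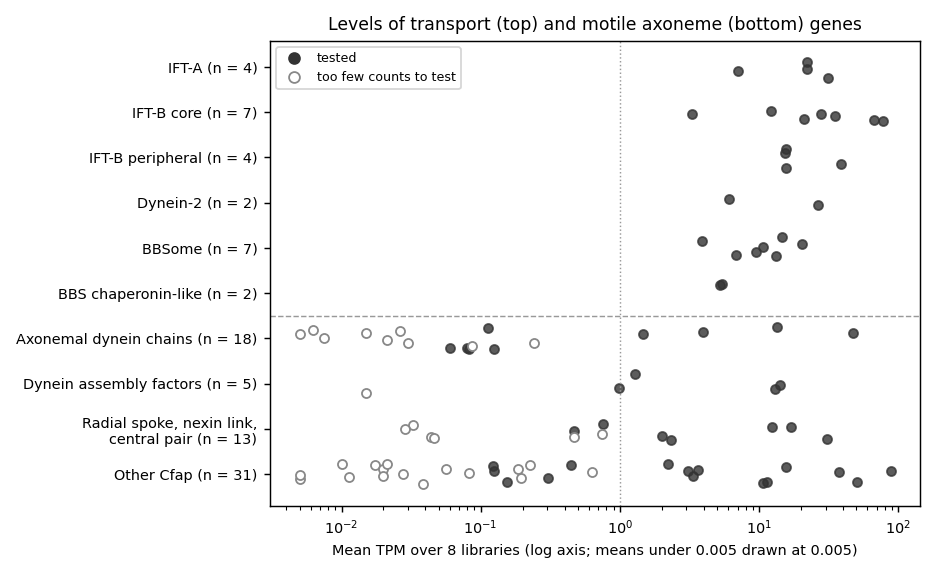
Mean TPM over 8 libraries of each of the 93 genes (x axis, log scale), by role (y axis), with transport genes above the dashed line and motile axoneme genes below it. Filled points are tested genes and open points are genes with too few counts to test. All 26 transport genes lie right of 1 TPM, and 22 of 67 motile axoneme genes do.

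Promoters of the genes were read for the X-box, a pair of inverted half-sites up to 3 bases apart that RFX transcription factors bind in ciliary genes. RefSeq promoter windows (GRCm38.p6, 250 bases before to 50 after the start site) were found for 22 of 26 transport genes and 57 of 67 motile axoneme genes. An X-box on either strand was found in 2 of 22 transport windows (9.09%) and in 9 of 61 motile axoneme windows (14.8%), against 502 of 32851 windows of all genes (1.53%). The half-site GTTGCC, which the X-box contains in many of these matches, was present in 40.9% of transport windows and 39.3% of motile axoneme windows, against 12.5% of all windows. The forkhead motif GTAAACA was in 0 transport windows and 4.92% of motile axoneme windows, against 3.65% of all. The TEAD motif GGAATG, for the factors through which YAP1 acts, was in 0 transport windows and 9.84% of motile axoneme windows, against 14.7% of all. A match is a description of the sequence, not a site of binding.

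X-boxes of motile axoneme members that changed in differentiation (the values follow) are shown because these genes moved in opposite directions. Capitals mark the X-box, with 12 bases on each side, as read on the strand of the gene, and the coordinates are those of the capitals.
Hydin, chr8:110266956-110266969, 21 bases before the start site: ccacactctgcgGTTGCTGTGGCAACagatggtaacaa
Dnaaf2, chr12:69198433-69198446, 17 bases before: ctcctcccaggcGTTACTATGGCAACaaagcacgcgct
Cfap298, chr16:90934904-90934918, 69 bases before: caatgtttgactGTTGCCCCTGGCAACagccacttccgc
Cfap298, chr16:90935024-90935037, 188 bases before: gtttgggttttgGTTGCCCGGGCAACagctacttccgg
Dynlrb2, chr8:116504964-116504976, 51 bases before: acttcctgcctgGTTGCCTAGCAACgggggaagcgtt
Cfap44, chr16:44394772-44394785, 27 bases before: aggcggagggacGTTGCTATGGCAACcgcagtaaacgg
Rsph3b, chr17:6948335-6948347, 10 bases after: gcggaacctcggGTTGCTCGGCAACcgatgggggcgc
Hydin, Dnaaf2, Cfap298 and Dynlrb2 were called lower in differentiation in at least 1 genotype, and Cfap44 and Rsph3b were called higher.

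The whole windows of Hydin, the member that fell most, and Cfap44, a member that rose, are given for comparison (RefSeq, GRCm38.p6, X-box in capitals).
Hydin, chr8:110266727-110267026, plus strand: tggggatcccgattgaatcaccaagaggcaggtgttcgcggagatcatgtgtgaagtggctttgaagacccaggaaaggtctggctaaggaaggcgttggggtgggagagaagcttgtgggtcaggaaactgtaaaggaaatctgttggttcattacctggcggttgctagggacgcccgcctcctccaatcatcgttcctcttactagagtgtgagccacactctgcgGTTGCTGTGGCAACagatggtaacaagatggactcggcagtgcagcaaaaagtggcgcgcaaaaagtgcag
Cfap44, chr16:44394549-44394848, plus strand: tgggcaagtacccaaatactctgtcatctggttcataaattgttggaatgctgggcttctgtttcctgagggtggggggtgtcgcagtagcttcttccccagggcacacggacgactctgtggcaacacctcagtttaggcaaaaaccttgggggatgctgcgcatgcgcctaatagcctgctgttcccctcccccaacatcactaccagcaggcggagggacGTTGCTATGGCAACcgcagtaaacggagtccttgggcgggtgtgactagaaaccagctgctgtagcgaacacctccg

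Differentiation against proliferation asks how the ciliary genes differ between the culture conditions. These also differ in length, 5 days against 7, so condition and length of culture cannot be told apart. More transport genes were called lower than higher in both genotypes, while the fold changes of the class lay about evenly around 0. In KO cells 12 lay above 0 and 14 below, and in WT cells 13 above and 13 below. In KO cells 3 of 26 transport genes were higher and 10 lower in differentiation, and in WT cells 3 were higher and 9 lower (edgeR quasi-likelihood test with Benjamini-Hochberg adjustment, adjusted p under 0.05). Fits without 1 library called fewer or as many transport genes in each direction in each genotype. They leave 1 library in a group, and the shares of all genes called in them are not given here. Their counts thus cannot be set beside the shares that follow, which come from all 8 libraries. Of all 13046 genes tested, 25.1% were higher and 26.7% lower in KO cells, and 27% were higher and 28.3% lower in WT cells. The share of transport genes called, 50% in KO cells and 46.2% in WT cells, was near the 51.8% and 55.3% of all genes in the same comparisons. Their median log2 fold change was -0.25 in KO cells and -0.07 in WT cells, against 0.01 over all genes in each. Differentiation libraries lay wholly above proliferation libraries for 7 transport genes and below them for 12 in KO cells, against 37.8% and 38.1% of all genes. In WT cells they lay above for 6 and below for 13, against 40.6% and 40.6% of all genes. At least 2-fold, 1 transport gene was called higher and 1 lower in KO cells and 0 higher and 3 lower in WT cells, against 14.6% and 13.4% of all genes in KO cells and 16.5% and 14.4% in WT cells. In cultures that change their mix of cells, more cells of a type and more RNA per cell cannot be told apart.

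The IFT-A genes, which serve return transport, gave 2 calls of 4 in each genotype. Ttc21b (chr2:66183787-66258285 in GRCm38, as all coordinates here), the IFT139 subunit, had 11.5 and 10.6 CPM in KO differentiation, against 19.3 and 19.7 CPM in KO proliferation. It had 7.69 and 9.81 CPM in WT differentiation, against 24.3 and 19.3 CPM in WT proliferation. Neither pair of groups overlapped, and Ttc21b fell by 0.82 in KO cells (log2, SE 0.184, edgeR adjusted p = 0.0104) and by 1.31 in WT cells (SE 0.186, edgeR adjusted p = 0.00141). Ift140, which links the IFT-A core, fell by 0.58 in KO cells and by 0.64 in WT cells on the log2 scale. Its call was lost in 3 of 8 fits without 1 library in each genotype: in KO cells without either KO proliferation library or KO differentiation 7 (edgeR adjusted p 0.0551 to 0.0919), and in WT cells without either WT proliferation library or WT differentiation 7 (0.0529 to 0.0835). Ift122 and Ift43 did not pass, with log2 fold changes of -0.14 and -0.49 in KO cells and 0.04 and -0.61 in WT cells.

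The IFT-B genes with an Ift symbol, of the trains that run to the tip, were lower where they were called, while Ttc30b, an IFT-B gene outside the symbol rule, rose (values with the related genes). Ift74 (chr4:94603266-94693233), which with Ift81 carries tubulin, had 22.3 and 18.8 CPM in KO differentiation, against 32.1 and 31.4 CPM in KO proliferation. It had 18.2 and 20.9 CPM in WT differentiation, against 35.0 and 35.0 CPM in WT proliferation. No library of differentiation reached one of proliferation, and Ift74 fell by 0.63 in KO cells (log2, SE 0.133, edgeR adjusted p = 0.00821) and by 0.84 in WT cells (SE 0.133, edgeR adjusted p = 0.00226). Its core partners Ift22, Ift46, Ift52, Ift81 and Ift88 passed in neither genotype, with log2 fold changes from -0.76 (Ift88) to 0.54 (Ift46) in KO cells and from -0.69 (Ift88) to 0.52 (Ift46) in WT cells.

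Ift27, a small GTPase of IFT-B, fell by 0.74 in KO cells and by 0.64 in WT cells on the log2 scale. Of the peripheral IFT-B genes, Ift80 and Ift172 fell in both genotypes and Ift57 in KO cells, while Ift20, which works between the Golgi and the cilium, had a log2 fold change of 0.04 in KO cells and 0.06 in WT cells and did not pass. Ift57 fell by 0.54 in KO cells (log2, edgeR adjusted p = 0.0188) and had a log2 fold change of -0.35 in WT cells (edgeR adjusted p = 0.0771). An antisense gene overlaps its exons, and the sources used here do not give the strand setting of the counting. The WT call of Ift27 was lost without WT proliferation 7, WT differentiation 7 or WT differentiation 8 (edgeR adjusted p 0.0542 to 0.0916), and the KO call of Ift57 without KO proliferation 7 or KO differentiation 8 (0.106 and 0.0735). The KO call of Ift80 was lost without KO proliferation 8 or KO differentiation 8 (edgeR adjusted p 0.057 and 0.0517), and its WT call without any 1 of the 4 WT libraries (0.0539 to 0.165). The WT call of Ift172 was lost without WT proliferation 8 or WT differentiation 7 (edgeR adjusted p 0.0664 and 0.0621), and its KO call in every fit without 1 library except that without KO differentiation 8 (0.061 to 0.169), with limma-voom (0.0548) and with no filter (0.0508).

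The dynein-2 genes changed in opposite directions. Dync2h1 (chr9:6928502-7184482), its heavy chain, had 31.5 and 31.1 CPM in KO differentiation, against 55.0 and 49.8 CPM in KO proliferation. It had 22.2 and 29.3 CPM in WT differentiation, against 45.7 and 55.0 CPM in WT proliferation, and the groups did not overlap. It fell by 0.74 in KO cells (log2, SE 0.164, edgeR adjusted p = 0.0096) and by 0.97 in WT cells (SE 0.165, edgeR adjusted p = 0.00301), and the KO call was lost without KO proliferation 7 (0.051). Dync2li1 (chr17:84626475-84655568), its light intermediate chain, was higher in differentiation by 0.54 in KO cells (edgeR adjusted p = 0.0283) and by 0.50 in WT cells (0.0343). The KO call of Dync2li1 was lost without either KO proliferation library, KO differentiation 8 or WT differentiation 7 (edgeR adjusted p 0.0525 to 0.14), and its WT call without any library but the KO differentiation ones (0.0529 to 0.175).

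BBSome genes also moved both ways. Bbs4 (chr9:59321966-59353508) had 11.78 and 11.03 CPM in KO differentiation, against 4.21 and 6.34 CPM in KO proliferation. It had 9.60 and 9.12 CPM in WT differentiation, against 5.30 and 5.00 CPM in WT proliferation. Bbs4 thus rose, by 1.11 in KO cells (log2, SE 0.241, edgeR adjusted p = 0.00889) and by 0.86 in WT cells (SE 0.241, edgeR adjusted p = 0.0216), with no overlap of libraries. Its exons overlap those of Adpgk on the other strand.

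Bbs7 (chr3:36573142-36613492) had 13.1 and 12.3 CPM in KO differentiation, against 21.2 and 23.1 CPM in KO proliferation. It had 10.49 and 11.96 CPM in WT differentiation, against 26.0 and 22.0 CPM in WT proliferation, again with no overlap. Bbs7 fell by 0.80 in KO cells (log2, SE 0.152, edgeR adjusted p = 0.00512) and by 1.09 in WT cells (SE 0.152, edgeR adjusted p = 0.00131). Bbs5, a BBSome subunit that binds phosphoinositides, fell by 1.07 in KO cells and by 1.38 in WT cells, and Bbs2 rose by 0.60 in KO cells and by 0.67 in WT cells (log2). The WT calls of Bbs4 and Bbs2 were lost without any 1 of the 4 WT libraries (edgeR adjusted p 0.0664 to 0.0976 for Bbs4 and 0.066 to 0.107 for Bbs2). The KO call of Bbs2 was lost in 6 of 8 fits, all but those without KO proliferation 8 or KO differentiation 8 (edgeR adjusted p 0.0566 to 0.174), and that of Bbs5 in the 6 fits without a proliferation or a KO differentiation library (0.0631 to 0.13). The WT call of Bbs5 was lost without WT proliferation 8 or WT differentiation 8 (edgeR adjusted p 0.0623 and 0.0704). Bbs1, Bbs9, Ttc8, Bbs10 and Bbs12 did not pass in either genotype.

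**Figure D2:**
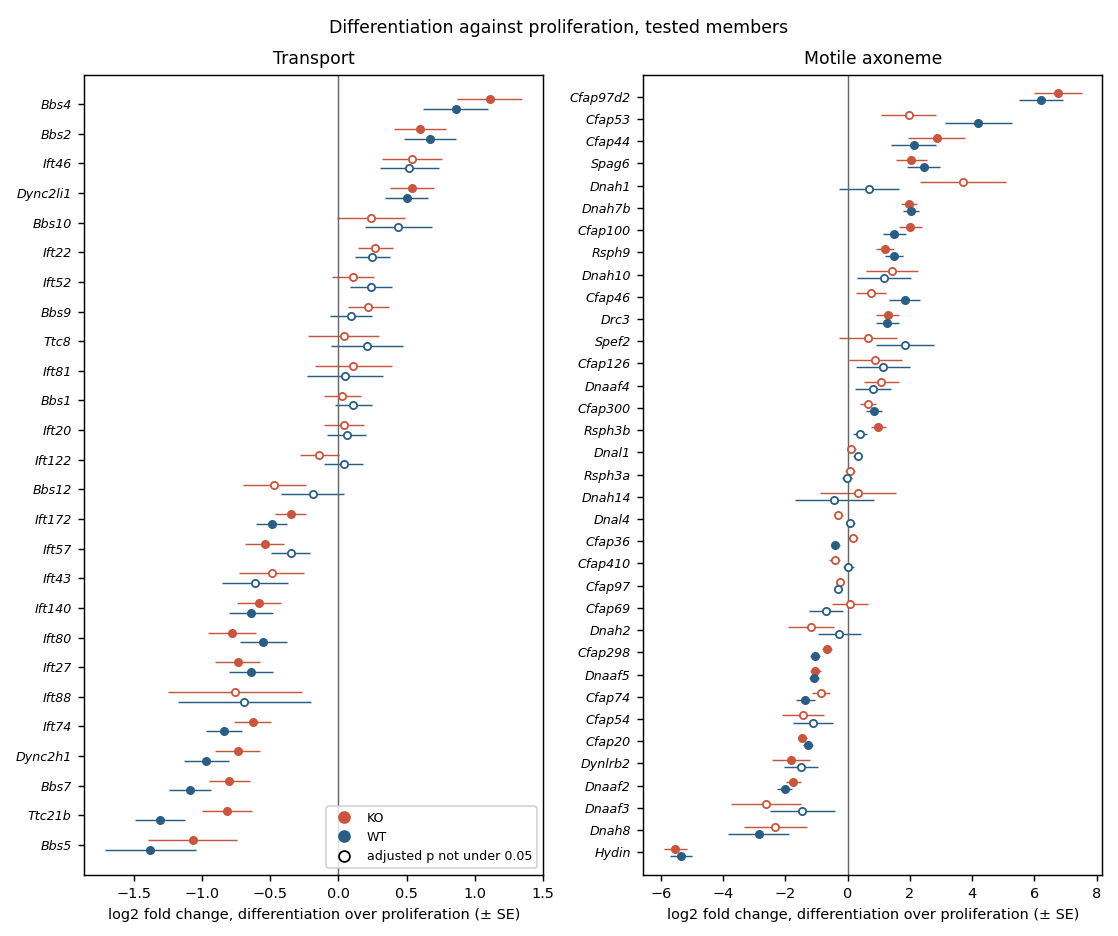
log2 fold change of differentiation over proliferation (x axis, bars are SE of the edgeR fit) for each tested transport gene (left) and motile axoneme gene (right), with KO above WT in each row. Filled points passed an adjusted p of 0.05. Transport genes lie between -1.38 and 1.11, and motile axoneme genes between -5.53 and 6.76.

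Motile axoneme genes that could be tested were called in both directions. In KO cells 8 of 35 tested genes were higher and 6 lower in differentiation, and in WT cells 10 were higher and 8 lower (edgeR, adjusted p under 0.05). Fewer were called higher in KO cells without either KO proliferation library, and in WT cells without any 1 of the 4 WT libraries. The shares of all genes called in those fits are not given here, so their counts cannot be set beside the shares that follow. The share called, 40% in KO cells and 51.4% in WT cells, stands beside 51.8% and 55.3% of all genes. The median log2 fold change was 0.18 in KO cells and 0.09 in WT cells. At least 2-fold, 7 were called higher and 5 lower in KO cells and 9 higher and 7 lower in WT cells, beside the same shares of all genes given for transport. Genes that passed the filter on low counts only through the condition where they are high had to differ, so these counts describe the tested genes alone. Libraries of differentiation lay wholly above those of proliferation for 15 of the 35 and below them for 14 in KO cells, and above for 15 and below for 13 in WT cells, beside 37.8% and 38.1% of all genes in KO cells and 40.6% each way in WT cells. Both genotypes shared 7 higher genes, which are 87.5% of those called in KO cells and 70% of those in WT cells, and 5 lower genes, 83.3% of those in KO cells and 62.5% of those in WT cells. The authors' q-values (DESeq2, under 0.05) called 5 motile axoneme genes higher and 4 lower in KO cells. In WT cells they called 4 higher and 7 lower. The shares of all genes called by those q-values are not given here, so these counts cannot be set beside them. Spag6, Drc3 and Cfap44 passed in neither genotype by those q-values, and Cfap46, Cfap53 and Cfap300 did not pass in WT cells. For transport genes those q-values gave 1 higher and 7 lower in KO cells and 2 higher and 8 lower in WT cells, again without the shares of all genes.

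Hydin, a protein of the central pair whose loss causes hydrocephalus in mice, was nearly absent in differentiation. It had 9 and 6 counts in KO differentiation, against 382 and 335 counts in KO proliferation. It had 6 and 9 counts in WT differentiation, against 384 and 257 counts in WT proliferation, and the groups were far apart. Hydin (chr8:110266968-110610253) fell by 5.53 in KO cells (log2, SE 0.36, edgeR adjusted p = 8.59e-05) and by 5.35 in WT cells (SE 0.359, edgeR adjusted p = 8.58e-05). In the authors' deposited table its log2 fold change was -5.55 in KO cells and -5.37 in WT cells. An antisense gene overlaps its exons, so without strand its reads cannot be told apart from that partner.

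Of the 7 tested central pair, radial spoke and nexin link genes, 4 were called higher in KO cells and 3 in WT cells, and Hydin alone was called lower in each. Of all genes 25.1% were called higher and 26.7% lower in KO cells, and 27% and 28.3% in WT cells. Members low in proliferation, such as Spag6, can pass the filter on low counts only through differentiation, so these counts describe the tested genes alone. Rsph3a and Spef2 were called in neither genotype, and 6 of the 13 genes of this role had too few counts to test. Spag6 (chr2:18694011-18749746), of the central pair, had 1.42 and 1.55 CPM in KO differentiation, against 0.273 and 0.433 CPM in KO proliferation. It had 1.18 and 1.18 CPM in WT differentiation, against 0.265 and 0.159 CPM in WT proliferation. The groups did not overlap, and Spag6 rose by 2.05 in KO cells (log2, SE 0.495, edgeR adjusted p = 0.0134) and by 2.44 in WT cells (SE 0.522, edgeR adjusted p = 0.00775). The KO call was lost without KO proliferation 7 (edgeR adjusted p = 0.0861) and the WT call without WT proliferation 8 (0.0568).

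Rsph9, of the radial spoke head, rose by 1.19 in KO cells and by 1.49 in WT cells (log2), and Drc3, of the nexin link, rose by 1.29 in KO cells and by 1.27 in WT cells. The KO call of Rsph9 was lost without either KO proliferation library (edgeR adjusted p 0.05 and 0.0755). The KO call of Drc3 was lost without either KO proliferation library or KO differentiation 7 (edgeR adjusted p 0.0957 to 0.107), and its WT call without any 1 of the 4 WT libraries (0.0552 to 0.123). Rsph3b, of the spoke stalk, rose by 0.99 in KO cells (edgeR adjusted p = 0.0125) and had a log2 fold change of 0.40 in WT cells (edgeR adjusted p = 0.18). Its call was lost without KO proliferation 8 or KO differentiation 7 (edgeR adjusted p 0.0707 and 0.0627), and reads can be shared with its near copy Rsph3a, which did not pass.

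Dynein assembly factors, which fold dynein arms in the cytoplasm, fell where they were called. Dnaaf2 (chr12:69189087-69200083) had 7.68 and 12.9 CPM in KO differentiation, against 35.0 and 34.1 CPM in KO proliferation. It had 8.19 and 9.76 CPM in WT differentiation, against 37.2 and 35.6 CPM in WT proliferation. The groups were well apart, and Dnaaf2 fell by 1.75 in KO cells (log2, SE 0.243, edgeR adjusted p = 0.00149) and by 2.02 in WT cells (SE 0.245, edgeR adjusted p = 0.000749). Its exons overlap other annotated genes on both strands. Dnaaf5 fell by 1.04 in KO cells and by 1.08 in WT cells (log2, edgeR adjusted p = 0.003 and 0.00229). Dnaaf3 and Dnaaf4 did not pass, with log2 fold changes of -2.62 and 1.09 in KO cells and -1.45 and 0.82 in WT cells.

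Of the axonemal dynein chains tested, Dnah7b (chr1:46066071-46373551), an inner arm heavy chain, was called higher in both genotypes. It had 12.8 and 10.2 CPM in KO differentiation, against 2.46 and 3.41 CPM in KO proliferation. It had 15.4 and 12.3 CPM in WT differentiation, against 3.28 and 3.45 CPM in WT proliferation. No libraries overlapped, and Dnah7b rose by 1.97 in KO cells (log2, SE 0.259, edgeR adjusted p = 0.0012) and by 2.04 in WT cells (SE 0.258, edgeR adjusted p = 0.000883). It is uncertain in part, since its near copies Dnah7a and Dnah7c can share reads with it. Dynlrb2, a dynein light chain that the symbol rule alone places in the motile axoneme class, was called lower in KO cells (log2 -1.82, edgeR adjusted p = 0.0426). The call was lost without any 1 library. It was also lost with DESeq2 (adjusted p = 0.132), limma-voom (0.0732) and no filter (0.0607). Dnah8, an outer arm heavy chain, was called lower in WT cells (log2 -2.86, edgeR adjusted p = 0.0436), and the call was lost without WT proliferation 7 or either WT differentiation library (0.145 to 0.241) and with limma-voom (0.0618).

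The Cfap genes held the largest rise of the tested members. Cfap97d2 (chr8:13705750-13744599) had 57 and 77 counts in KO differentiation, against 0 and 1 counts in KO proliferation. It had 96 and 65 counts in WT differentiation, against 1 and 1 counts in WT proliferation. Nearly all of its reads came from differentiation, and its log2 fold change was 6.76 in KO cells (edgeR adjusted p = 0.000649) and 6.21 in WT cells (edgeR adjusted p = 0.00054), a fit that depends on the prior count. The ratio of summed counts, scaled to library size, was 136 in KO cells (95% counting interval 24.0 to 5408) and 83.2 in WT cells (22.7 to 693), intervals that cover counting error only.

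Cfap100, of the inner arm tether in Chlamydomonas, rose 4.06-fold in KO cells and 2.83-fold in WT cells, and the WT call was lost without WT proliferation 7 or WT differentiation 7 (edgeR adjusted p 0.0785 and 0.0784). Cfap20 fell by 1.45 in KO cells (log2, SE 0.147, edgeR adjusted p = 0.000459) and by 1.27 in WT cells (SE 0.146, edgeR adjusted p = 0.000587). Cfap298, which acts in dynein arm assembly, fell 1.58-fold in KO cells and 2.07-fold in WT cells, and the KO call was lost without either KO proliferation library or KO differentiation 8 (edgeR adjusted p 0.0565 to 0.0663). Exons of Cfap100, Cfap298 and Cfap74 overlap those of genes on the other strand, as do exons of Spag6, Rsph3b, Dnaaf5 and Dnah8 above. Cfap46, Cfap53 and Cfap300 were called higher, and Cfap74 and Cfap36 lower, in WT cells. In WT cells Cfap53 had 22 counts in differentiation, against 1 in proliferation, a ratio of 22.7 (95% counting interval 3.68 to 939). These WT calls were lost without 1 library: Cfap46 without either WT proliferation library or WT differentiation 7 (edgeR adjusted p 0.0515 to 0.105), and Cfap53 without WT proliferation 8 or either WT differentiation library (0.0501 to 0.0777). Cfap300 was lost without WT proliferation 8 or either WT differentiation library (edgeR adjusted p 0.0512 to 0.131), Cfap74 without WT differentiation 7 (0.0518), and Cfap36 in every fit without 1 library but that without WT differentiation 8 (0.0553 to 0.219). The call of Cfap36 was also lost with DESeq2-type size factors (adjusted p = 0.0531), upper-quartile scaling (0.0624), DESeq2 (0.0601), no filter (0.0547) and a filter of 1 CPM (0.0512).

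Cfap44, of the tether and tether head complex, was higher in differentiation in both genotypes at under 2 CPM in every library. It had 0.228 and 0.643 CPM in KO differentiation, against 0.0546 and 0.0542 CPM in KO proliferation, where 1 count stood in each library. It had 0.673 and 1.45 CPM in WT differentiation, against 0.212 and 0.266 CPM in WT proliferation. The groups did not overlap, and the KO ratio was 8.11 (95% counting interval 1.91 to 72.8). The edgeR adjusted p was 0.0366 in KO cells and 0.0429 in WT cells. The KO call was lost without any proliferation library or KO differentiation 8 (edgeR adjusted p 0.0597 to 0.177), and with DESeq2 (0.079) and limma-voom (0.0768). The WT call was lost without any proliferation library or either WT differentiation library (edgeR adjusted p 0.0506 to 0.222), and with DESeq2 (0.104) and no filter (0.0536).

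**Figure D3:**
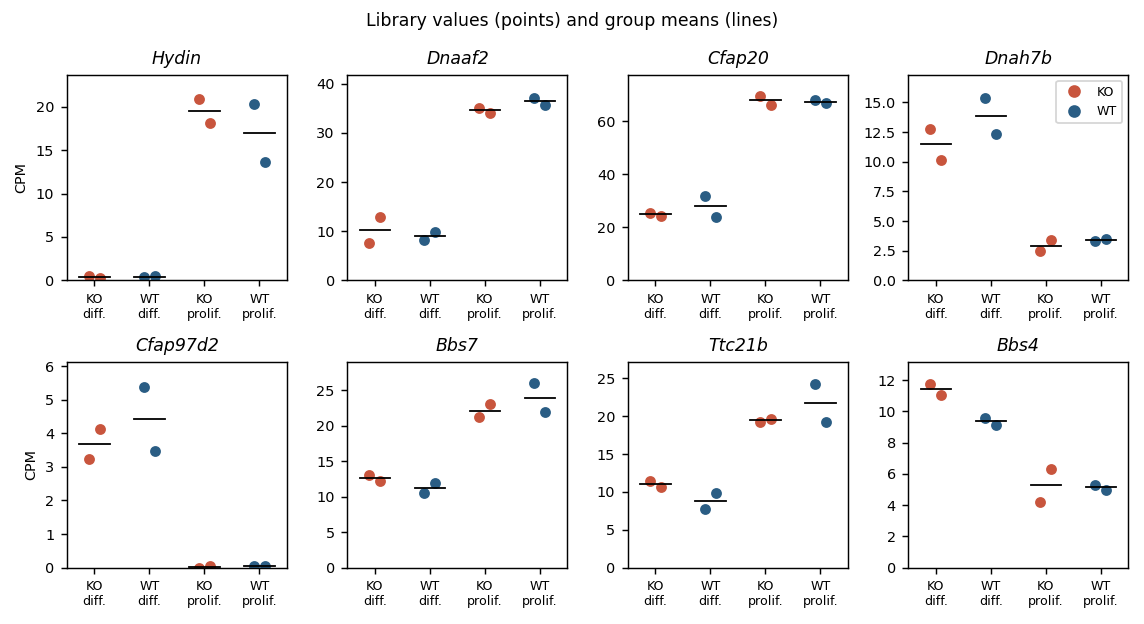
CPM (y axis, from 0) of 8 members in each library (points) with the group mean (line), by group (x axis). Hydin, Dnaaf2, Cfap20, Bbs7 and Ttc21b lie lower in differentiation in KO and WT libraries, and Dnah7b, Cfap97d2 and Bbs4 lie higher.

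Some members were called in 1 genotype and not in the other. The difference between genotypes in the change with differentiation passed for no member (edgeR, smallest adjusted p = 0.981), so none of these was shown to differ between KO and WT cells.

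Related genes outside the symbol rule were read from lists, whose counts stand beside 25.1% higher and 26.7% lower among all genes in KO cells and 27% and 28.3% in WT cells. Of 20 tested transition zone genes, which gate the base of the cilium, 1 was higher and 10 lower in KO cells and 1 was higher and 8 lower in WT cells (edgeR, adjusted p under 0.05). Cep290, its scaffold, had 7.28 and 7.01 CPM in KO differentiation, against 17.4 and 15.5 CPM in KO proliferation, and fell by 1.20 (log2, SE 0.159, edgeR adjusted p = 0.00122). In WT cells it had 6.00 and 6.17 CPM in differentiation, against 18.7 and 16.4 CPM in proliferation, and fell by 1.53 (SE 0.16, edgeR adjusted p = 0.000417). Of 13 genes for kinesin-2 and ciliary cargo, 4 were higher and 4 lower in KO cells and 5 were higher and 3 lower in WT cells.

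Kif3a, a kinesin-2 motor, rose by 0.99 in KO cells (log2, SE 0.0967, edgeR adjusted p = 0.00041) and by 0.96 in WT cells (SE 0.0967, edgeR adjusted p = 0.000353). Of 14 IFT and BBSome genes under other symbols, 2 were higher and 4 lower in KO cells and 1 was higher and 4 lower in WT cells. Ttc30b, an IFT70 subunit of IFT-B, had 28.3 and 23.6 CPM in KO differentiation, against 14.0 and 12.9 CPM in KO proliferation. It had 28.9 and 27.1 CPM in WT differentiation, against 13.2 and 13.3 CPM in WT proliferation. The groups did not overlap, and Ttc30b rose by 0.95 in KO cells (log2, SE 0.14, edgeR adjusted p = 0.00193) and by 1.08 in WT cells (SE 0.141, edgeR adjusted p = 0.000986), though near copies can share its reads. Of 23 tested further motile axoneme genes, 4 were higher and 4 lower in KO cells and 4 were higher and 2 lower in WT cells. Of 12 cilium disassembly genes, several of them mitotic kinases, 1 was higher and 6 lower in KO cells and 2 were higher and 8 lower in WT cells. Of 12 tested regulators of ciliogenesis, 1 was higher and 5 lower in each genotype. Rfx2, whose family binds the X-box, rose by 1.22 in KO cells and by 1.55 in WT cells, and Rfx4 fell by 1.10 in KO cells and by 0.69 in WT cells (log2, edgeR adjusted p from 0.00043 to 0.018).

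KO against WT asks whether loss of YAP1 changes the ciliary genes. No transport or motile axoneme gene passed in differentiation, in proliferation, on average over both or for the difference between both KO effects (edgeR, adjusted p under 0.05). Of all genes tested, 0% were called in differentiation, 0.00767% in proliferation, 0.00767% on average and 0% for the difference. Yap1 itself did not pass in differentiation, where the smallest edgeR adjusted p of any gene was 0.106, though it passed there with DESeq2 (adjusted p = 2.12e-22). It passed in proliferation (edgeR adjusted p = 0.0322) and on average (0.00603). The test thus missed a large change in the targeted gene, and a lack of calls does not show a lack of change. DESeq2 and limma-voom called no member either. At an unadjusted p under 0.05 there were 0 of 26 transport genes in differentiation, 0 in proliferation, 2 on average and 0 for the difference, and 1 of 35 motile axoneme genes in each. Of all genes, 1.87% were higher and 2.9% lower at that level in differentiation, 1.43% higher and 0.828% lower in proliferation, 3.16% either way on average and 4.28% for the difference. The median log2 fold change was -0.03 for transport and -0.16 for motile axoneme genes in differentiation, and -0.01 and -0.17 in proliferation. The value of -0.17 lay outside the range of -0.12 to -0.01 from fits without 1 library. In differentiation KO libraries lay wholly above WT libraries for 6 transport genes and below them for 6, against 15.9% and 15.6% of all genes. In proliferation they lay above for 0 and below for 3, against 14.7% and 15.6% of all genes. For motile axoneme genes the counts were 2 above and 8 below in differentiation and 3 above and 12 below in proliferation. Below in both conditions lay 2 of 26 transport genes and 3 of 35 motile axoneme genes, against 2.03% of all genes, and above in both lay 0 and 1, against 1.91%.

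All 7 tested ependymal markers lay below 0 in differentiation and 4 of 7 in proliferation, with medians of -0.65 and -0.20 (log2), and 0 passed in edgeR, with 2 at an unadjusted p under 0.05 in each condition. In the authors' deposited table, Foxj1 (adjusted p = 0.0175) and Tm4sf1 (adjusted p = 0.0189) passed as lower in KO differentiation. Summed over the 19 markers in the table, CPM was 29.3 and 46.2 in KO differentiation, against 81.3 and 113.8 in WT differentiation. The sum was 30.3 and 36.9 CPM in KO proliferation, against 47.3 and 63.6 CPM in WT proliferation, so KO libraries lay lower in both conditions. Most of it came from Foxj1 and Tm4sf1, while Pifo was at 0 and Tmem212 and Ccdc153 at or near 0. Of 23 tested further motile axoneme genes, 19 lay below 0 in differentiation and 15 in proliferation, with medians of -0.44 and -0.11 (log2). The part of the ependymal markers in the KO values was not tested.

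Dync2li1 was the transport gene with the smallest p on average over both conditions. It had 14.0 and 16.5 CPM in KO differentiation, against 18.9 and 19.3 CPM in WT differentiation. It had 9.996 and 10.99 CPM in KO proliferation, against 12.4 and 14.6 CPM in WT proliferation. KO libraries lay below WT libraries in both conditions, and on average its KO level differed by -0.34 on the log2 scale (SE 0.112, edgeR unadjusted p = 0.0202, adjusted p = 1). Ift22, a Rab-like protein of IFT-B, differed by -0.22 on average on the log2 scale (SE 0.091, edgeR unadjusted p = 0.0462, adjusted p = 1), with KO libraries below WT libraries in both conditions.

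Cfap44 had KO libraries below WT libraries in both conditions, as the values above show, and its average log2 fold change was -1.64 (SE 0.586, edgeR unadjusted p = 0.0285, adjusted p = 1). Dynlrb2 also lay lower in KO libraries in both conditions, at under 1.2 CPM throughout, and differed by -0.93 on average on the log2 scale (SE 0.408, edgeR adjusted p = 1). Dnah1, an inner arm heavy chain, had 0 and 1 counts in KO proliferation, against 2 and 12 counts in WT proliferation (log2 fold change -3.48, SE 1.39, edgeR unadjusted p = 0.0431, adjusted p = 1), and the WT level rested mostly on 1 library. Cfap36 had a difference between KO effects of 0.58 (log2, SE 0.199, edgeR unadjusted p = 0.0235, adjusted p = 0.981), with KO libraries above WT in differentiation and below WT in proliferation. Cfap410 had 8.195 and 10.17 CPM in KO differentiation, against 12.96 and 12.07 CPM in WT differentiation (log2 fold change -0.45, edgeR unadjusted p = 0.0464, adjusted p = 0.934).

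Foxj1, the regulator of motile ciliogenesis, had 17.6 and 28.5 CPM in KO differentiation, against 51.3 and 63.3 CPM in WT differentiation. It had 11.1 and 16.3 CPM in KO proliferation, against 25.1 and 42.1 CPM in WT proliferation. KO libraries lay below WT libraries in both conditions, and differed by -1.30 on average on the log2 scale (SE 0.248, edgeR adjusted p = 0.978), which passed with DESeq2 (adjusted p = 0.000747).

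**Figure D4:**
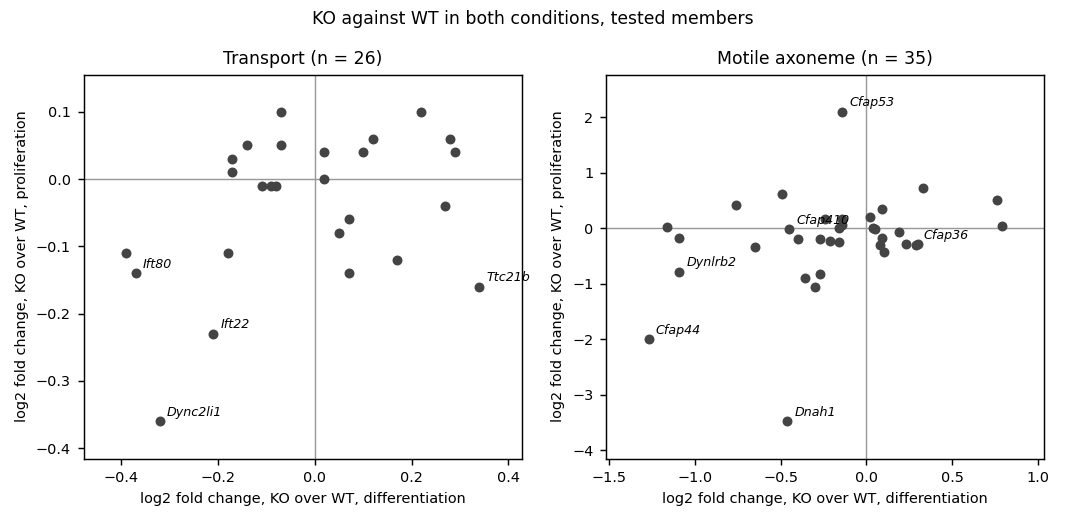
log2 fold change of KO over WT in differentiation (x axis) and in proliferation (y axis) for each tested transport gene (left) and motile axoneme gene (right). Points are genes, and the axes of the panels differ. No gene passed an adjusted p of 0.05, and Dync2li1, Ift22, Cfap44 and Dynlrb2 lie below 0 on both axes.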

How the data were processed

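RNA of 8 libraries was analysed, and 12 further labelled samples were not analysed here. The authors deposited an estimated count per gene and library (expected count, not normalised) and TPM values, per the file headers. They also deposited log2 fold changes and q-values of their own comparisons, printed only where named as theirs. Which aligner and counter were used is not given in the sources used here. The submitters' processing notes name GRCm39, while 85.4% of 16878 matched genes have the GRCm38 start, so coordinates are GRCm38. The table also holds 12 per-library columns of libraries without a label, which were not used. Counts were rounded and filtered (filterByExpr, 13046 genes kept), and tested in R 4.3.3 with the edgeR 4.0.16 quasi-likelihood test (TMM, 4 groups in 1 model, 4 residual degrees of freedom, two-sided), with Benjamini-Hochberg adjustment over all genes tested. Simulated data were used to check the fit. DESeq2 1.42.0 and limma 3.58.1 were alternatives. CPM uses TMM-scaled library sizes. X-boxes and other motifs were searched in RefSeq promoters, and gene overlaps in GENCODE. The sequence of 1 member's promoter matches is not reported here. The members and lists were chosen with earlier results of these data known. In each comparison the text names the members that passed, and the 3 of each class with the smallest p where none did, and gives a selection of the latter.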

Additional observations from a re-analysis of the deposited data

How the results depend on the processing

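Of 57 calls of members in differentiation against proliferation, 24 held without any 1 library and 33 were lost in at least 1 such fit. Without 1 library, the motile axoneme genes called higher numbered 4 to 8 in KO cells and 4 to 11 in WT cells, and those called lower 4 to 6 in KO cells and 5 to 8 in WT cells. The transport genes called higher numbered 1 to 2 in KO cells and 0 to 3 in WT cells, and those called lower 5 to 9 in both. The median log2 fold change of differentiation over proliferation ranged from -0.02 to 0.29 in KO cells and from 0.08 to 0.30 in WT cells for motile axoneme genes, and from -0.36 to -0.21 in KO cells and from -0.20 to -0.07 in WT cells for transport genes. For KO over WT the median of motile axoneme genes ranged from -0.19 to -0.10 in differentiation and from -0.12 to -0.01 in proliferation. The latter range does not hold the -0.17 found with all libraries. For transport genes the ranges were -0.07 to 0.03 and -0.12 to -0.01. No member was called in KO against WT in any fit without 1 library.

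With the Cfap genes and assembly factors left out, 9 tested axonemal dynein chains and 7 tested radial spoke, nexin link and central pair genes remained. Of these, 5 were higher and 2 lower in KO differentiation and 4 higher and 2 lower in WT differentiation. Of all genes, 25.1% were higher and 26.7% lower in KO cells, and 27% and 28.3% in WT cells. The medians were 0.50 in KO cells and 0.36 in WT cells, and -0.19 in differentiation and -0.07 in proliferation for KO over WT. The motile axoneme median in WT cells was 0.32 with limma-voom and 0.49 with no filter on low counts, and in KO cells 0.05 with no filter. For KO over WT in proliferation it was -0.07 with limma-voom, -0.01 with no filter and -0.12 with a filter of 1 CPM. The cause was not tested. The difference between KO effects of Foxj1, -0.02 and not called, ranged from -0.44 to 0.31 without 1 library, with 4 of 8 above 0 (0.15, 0.29, 0.29 and 0.31).

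The labels do not say what the numbers 7 and 8 stand for. Deviations of same-numbered libraries from their group means correlated at 0.538 to 0.784 over genes. With the replicate number as a block, 10 motile axoneme genes were higher and 9 lower in KO cells and 13 higher and 9 lower in WT cells. In that fit 4 transport genes were higher and 11 lower in each genotype, and no member was called in KO against WT. The shares of all genes called in that fit are not given here, so these counts cannot be set beside them. Foxj1 was then called lower in KO cells, on average (adjusted p = 0.00648) and in differentiation (0.0429), and higher in differentiation than in proliferation in KO cells (0.00233) and WT cells (0.000937). Low counts limit the motile axoneme genes, of which 32 were not tested.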
